A study of Mus musculus with 8 samples.

Results

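The 6 mouse Lce3 genes, Lce3a to Lce3f, encode late cornified envelope proteins and were taken as the array probes, control spots left out, whose RefSeq accession belongs to one of these symbols. Each gene had 1 probe. They were 6 of 36799 genes and other targets on the array, and all 6 were among the 23139 targets tested, those with a sample spot flagged well above background on 3 or 4 arrays of EED cKO or of control. Lce3a passed only through EED cKO epidermis, with 3 of 4 EED cKO and 0 of 4 control arrays well above background, and Lce3f also passed through EED cKO, with 4 EED cKO and 2 control arrays. The genes were picked with their difference between genotypes in view, in the array signals and in the deposited ratios, so the genotype values of the Lce3 genes below are a description and carry no test.

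Back skin epidermis was peeled from newborn (P0) C57BL/6 mice, 4 EED cKO (K14-Cre; EED flox/flox) and 4 control, and total RNA of the dissociated cells was labeled and hybridized to Agilent 2-color mouse arrays, each beside the same Universal Mouse Reference RNA. The labels give the controls only as CTL and call the samples biological replicates 1 to 4. For both genotypes the dyes were swapped, so that the sample was green (Cy3) in replicates 1 and 3 but red (Cy5) in replicates 2 and 4. All 8 arrays lay on 1 slide, with the EED cKO arrays in the first row and the control arrays in the second, so slide row and genotype cannot be told apart.

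EED is a core subunit of Polycomb repressive complex PRC2, which trimethylates lysine residue K27 of histone H3 and silences genes. The K14 promoter drives Cre in basal keratinocytes and thus in the layers they give rise to, so that other cells of the epidermis, such as melanocytes and immune cells, keep EED. The cornified envelope is the shell of cross-linked protein that forms beneath the plasma membrane of keratinocytes as they reach the skin surface. Its precursors are encoded largely in the epidermal differentiation complex, a gene cluster that holds the Lce, Sprr, loricrin, involucrin and filaggrin genes, and transglutaminases join the proteins. In human skin the LCE3 group is known for being low in healthy epidermis and induced after barrier injury and in psoriatic lesions.

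The genomic sequence just upstream of the 6 genes is shown. It sets Lce3a, whose probe was near background in both genotypes, beside the 5 genes whose probes were far above background in EED cKO. In control the Lce3f probe was near background too. The letters are the 120 bases before the annotated start site, 5′ to 3′ on the strand of the gene, from RefSeq on GRCm38.p6, at chr3:92926231-92926350 for Lce3a (minus strand) and, on the plus strand, at chr3:92932859-92932978 for Lce3b, chr3:92944366-92944485 for Lce3c, chr3:92957270-92957389 for Lce3d, chr3:92966941-92967060 for Lce3e and chr3:92992097-92992216 for Lce3f. These are upstream flanking sequence and hold no exon of the gene they precede. Capitals mark the 3 exact runs of at least 8 letters that 5 or more of the 6 genes share over 250 upstream bases, namely AGGATAAAAG, GTTGTGAAA and CATGCTTG, each held by 5 genes.
Lce3a: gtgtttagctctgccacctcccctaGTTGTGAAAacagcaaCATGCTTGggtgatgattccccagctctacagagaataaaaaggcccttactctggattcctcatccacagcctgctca
Lce3b: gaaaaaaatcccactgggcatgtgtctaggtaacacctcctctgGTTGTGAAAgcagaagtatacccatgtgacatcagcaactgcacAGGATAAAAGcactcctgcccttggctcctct
Lce3c: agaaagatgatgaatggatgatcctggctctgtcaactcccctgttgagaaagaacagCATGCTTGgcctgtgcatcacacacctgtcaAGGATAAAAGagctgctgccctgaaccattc
Lce3d: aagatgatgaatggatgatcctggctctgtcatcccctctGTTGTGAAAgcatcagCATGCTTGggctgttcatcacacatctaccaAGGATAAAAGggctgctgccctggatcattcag
Lce3e: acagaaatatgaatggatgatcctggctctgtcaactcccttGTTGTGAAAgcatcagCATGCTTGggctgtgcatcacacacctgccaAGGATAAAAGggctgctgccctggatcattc
Lce3f: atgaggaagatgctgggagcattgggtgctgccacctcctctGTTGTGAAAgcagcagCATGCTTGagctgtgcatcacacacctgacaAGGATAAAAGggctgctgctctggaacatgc

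AGGATAAAAG lay in Lce3b to Lce3f and began 31 to 33 bases before the start site, while Lce3a had at most the 6 letters ATAAAA there, beginning 44 bases before its start site. On either strand, AGGATAAAAG was found in 29 of 32851 upstream windows of 250 bases, or 0.0883%. The run GTTGTGAAA lay in all of them except Lce3c and was found in 66 windows (0.201%), and CATGCTTG lay in all except Lce3b and was found in 263 windows (0.801%). None of these 3 runs occurred in the 14 Lce1 and Lce6 windows or in the 14 Sprr windows. The shorter ATAAAA, which all 6 Lce3 windows hold, occurred in 13 of the 14 Lce1 and Lce6 windows, 7 of 14 Sprr windows and 17.0% of all windows. The TATA letters TATAAA occurred in no Lce3 window on the strand of the gene, in 1 on the opposite strand, in 3 of 14 Lce1 and Lce6 windows, in 10 of 14 Sprr windows and in 12.4% of all windows. The AP-1 letters TGANTCA occurred in 0 of 6 Lce3 windows and 0 of 14 Lce1 and Lce6 windows. They occurred in 9 of 14 Sprr windows and 6.75% of all windows, so their absence is not particular to the Lce3 genes. Over the 120 bases shown, the most alike pair was Lce3d and Lce3e, with 93.3% of bases identical in a global alignment, and Lce3c and Lce3e shared 90.0%. Lce3a shared 60.8% to 68.3% with the other 5 genes, and Lce3b 60.8% to 71.7%. The runs were picked from these sequences, and a match is a description of the letters, not of binding.

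The targeted gene was lower in every EED cKO sample. Eed spot intensities in the sample channel were 546, 788, 620 and 827.5 on EED cKO arrays 1 to 4 and 1841, 3360.5, 2061 and 3247 on control arrays 1 to 4. The log2 ratio of sample over reference, after normexp background correction with an offset of 50 and loess normalization, fell by 1.46 ± 0.09 (SE) with an adjusted p = 2.13e-05 by limma. Of all targets, 1.1% were called higher and 0.0994% lower in EED cKO on that ratio, where a call took an adjusted p below 0.05 together with a 2-fold change or more. Keratinocyte markers fitted the labelled tissue, with 5 of 5 suprabasal and 6 of 6 basal genes well above background on every array. Dermal fibroblast (6 of 6) and melanocyte (5 of 5) genes were also well above background on every array.

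In the sample channel itself, Lce3b, Lce3c, Lce3d and Lce3e each gave 6.89-fold to 9.04-fold more signal from EED cKO than from control epidermis, after normexp and quantile normalization across arrays. Lce3f gave 8.30-fold more, a value that rests on a control probe well above background on 2 of 4 arrays. The 5 of 6 genes were at least 2-fold higher, against 1.17% of all targets, and they ranked between 12 and 20 among the 23139 targets by that difference. All 6 genes had 4 EED cKO arrays above 4 control arrays, against 8.5% of all targets, though Lce3a was near background in both genotypes. The rule used this contrast, so the shares are given for scale only. In RNA from whole epidermis, more cells of a type and more RNA per cell cannot be told apart.

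Lce3b gave median spot intensities of 4491.5, 8167, 3514 and 5750 for the sample on EED cKO arrays 1 to 4. On control arrays 1 to 4 the Lce3b intensities were 415, 1230.5, 1127 and 475. The lowest EED cKO array was above the highest control array, and control replicates 2 and 3 were above control replicates 1 and 4. The normalized log2 level of Lce3b in the sample channel was 12.45 ± 0.20 in EED cKO and 9.44 ± 0.69 in control (SD, n = 4), a difference of 3.01.

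Lce3c, the next gene along the cluster, gave 7965, 12843, 5703 and 9151 on the EED cKO arrays and 716, 1986, 1802 and 757 on the control arrays. Again no control array reached the lowest EED cKO array, and the same 2 controls were the higher ones. Its normalized level was 13.13 ± 0.18 in EED cKO and 10.12 ± 0.72 in control (SD, n = 4), a log2 difference of 3.01. Lce3d gave 4943, 9820.5, 4136 and 6853 on the EED cKO arrays and 557, 1664, 1428 and 724 on the control arrays. Its normalized level was 12.65 ± 0.21 against 9.87 ± 0.61 (SD, n = 4), a log2 difference of 2.78. The groups of Lce3d did not overlap either, and its order among the controls was that of Lce3b and Lce3c.

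Lce3e gave sample intensities of 1285, 3029, 936 and 1427 in EED cKO and 94, 328, 246 and 96 on the control arrays. Control replicates 1 and 4 lay close to each other and below control replicates 2 and 3, as for the 3 genes before it. The normalized level of Lce3e was 10.71 ± 0.40 in EED cKO and 7.54 ± 0.60 in control (SD, n = 4), a log2 difference of 3.18. Lce3f, the last member of the row, gave 394, 819.5, 360 and 463.5 in EED cKO and 41.5, 37, 61.5 and 25 in control. Its local background was 20 to 28 in the same channel, so Lce3f in control epidermis lay near background while every EED cKO array was far above it. The normalized log2 difference of Lce3f was 3.05, with the control side measured above background on 2 arrays.

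Lce3a stood apart from the other 5 genes. Its sample intensities were 42, 37, 53 and 32 on the EED cKO arrays and 37, 27, 50 and 25 on the control arrays, with local backgrounds of 21 to 28. The raw ranges overlapped. Because the Lce3a probe was well above background on no control array, its control level is only a bound. With that bound, the normalized log2 channel values gave 1.11-fold for EED cKO over control. EED cKO replicate 3 was itself not well above background, so values this near background do not settle whether Lce3a was higher.

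**Figure D1:**
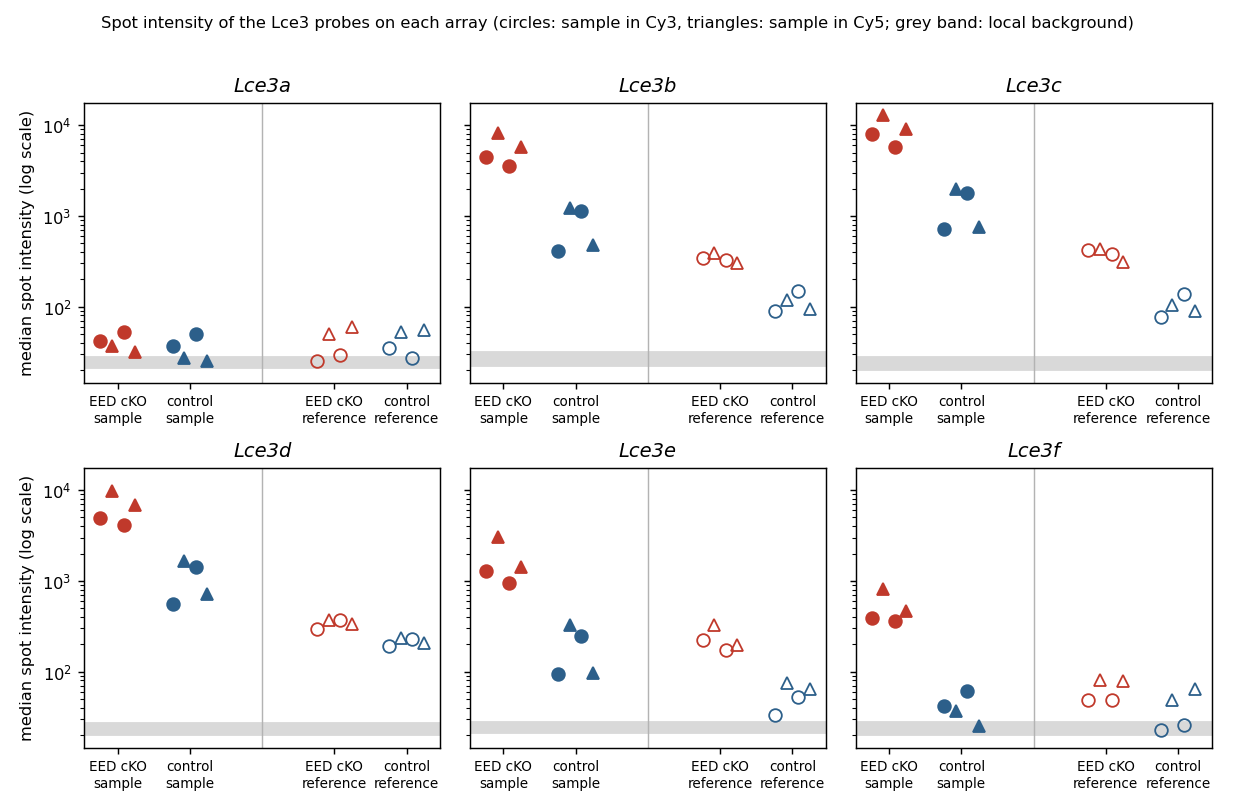
Median spot intensity (log scale, no normalization) of the 6 Lce3 probes on each of 4 EED cKO arrays (red) and 4 control arrays (blue), for the sample channel (filled) and for the reference channel of the same arrays (open). Circles mark arrays with the sample in Cy3, triangles those with the sample in Cy5, and the grey band spans the local background. For Lce3b to Lce3f all filled red points lie above all filled blue points, and for Lce3b to Lce3e the open red points also lie above the open blue points.

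The reference channel holds the same RNA on all 8 arrays, yet the Lce3 probes were brighter in it on the EED cKO arrays. Lce3c reference intensities were 420, 435, 384 and 312 on EED cKO arrays 1 to 4 and 76, 104, 138 and 89 on control arrays 1 to 4. Those of Lce3b were 341, 388, 323 and 302 against 90.5, 117.5, 148 and 95. For both genes every EED cKO array was above every control array, and the highest control value fell on replicate 3.

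Lce3e reference intensities were 222, 323, 174 and 194 on the EED cKO arrays and 33, 75, 52 and 63.5 on the control arrays. Those of Lce3d were 291, 373, 369 and 331 against 191, 235, 228.5 and 208, a smaller step with no overlap. Lce3f gave 48.5, 81, 49 and 78 against 22.5, 49, 26 and 63.5, and its raw ranges overlapped. Lce3a gave 25.5, 50, 29 and 59.5 against 35, 53, 27.5 and 55, with no separation of the genotypes.

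After quantile normalization, the reference channel differed between EED cKO and control arrays by a log2 of 1.78 for Lce3c, 1.67 for Lce3e, 1.50 for Lce3b, 0.66 for Lce3d, 0.51 for Lce3f and -0.029 for Lce3a. Such differences were rare among all targets. At least a 2-fold higher reference signal on the EED cKO arrays was found for 18 of 23139 targets (0.0778%), and Lce3b, Lce3c and Lce3e were 3 of them, at ranks 4, 2 and 3. Non-overlapping, higher reference signals were found for 5 of 6 Lce3 genes against 1.52% of targets, and the median over all targets was -0.000524. In control the Lce3f reference was well above background on 0 of 4 arrays. The ratio used by the rule holds this reference as its divisor, so these ranks and shares are given for scale only. The net reference signal of Lce3c was 3.13% to 8.82% of its net sample signal on the same array, and that of Lce3b was 4.37% to 17.1%. Among all probes with a net sample signal over 1000, the lowest 1% had a reference signal of at most 2.23% to 4.64% of the sample signal, depending on the array. On control replicates 1 and 4 Lce3b and Lce3c had sample signals below 1000, so that share does not cover them there. What part the sample RNA or the slide position had in the reference signal was not tested.

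The ratio divides by this reference, and it gave smaller differences than the sample channel for Lce3b, Lce3c, Lce3d and Lce3e. The log2 ratio of Lce3b was 4.49, 4.81, 4.67 and 5.05 in EED cKO replicates 1 to 4 and 2.98, 3.68, 3.66 and 2.86 in control replicates 1 to 4, a difference of 1.46. For Lce3c the ratio was 4.95, 5.22, 5.09 and 5.61 against 3.94, 4.47, 4.41 and 3.55, a difference of 1.12. All EED cKO values were above all control values for both genes, and the sample channel difference of both was 3.01.

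The Lce3d ratio was 4.83, 5.09, 4.70 and 5.15 in EED cKO and 2.59, 3.14, 3.47 and 2.35 in control, a difference of 2.05. For Lce3e the ratio was 3.34, 3.73, 3.54 and 3.79 against 1.38, 2.39, 2.37 and 1.21, a difference of 1.76. Lce3f had ratios of 3.22, 3.74, 3.20 and 3.39 against 0.25, 0.30, 0.36 and -0.12, a difference of 3.19. In control its reference was well above background on 0 of 4 arrays and its sample on 2 of 4, so the control ratios of Lce3f are near-background signals held toward 0 by the offset. Lce3a had ratios of 0.22, 0.31, 0.036 and 0.20 against -0.099, -0.030, -0.0019 and 0.025, a difference of 0.22. On this ratio 5 of 6 genes were at least 2-fold higher (1.13% of all targets were) and 6 of 6 did not overlap (9.68% of targets). For Lce3a, near background in both genotypes, the gap was only between 0.036 in EED cKO and 0.025 in control. The rule used this contrast, so the shares are given for scale only. The median of the 6 differences was 1.61 against 0.0191 over all targets.

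The order of the genes differed between the readouts. Among the 4 genes well above background in every sample, the ratio gave Lce3d rank 37 of 23139, Lce3e 50, Lce3b 92 and Lce3c 190. The sample channel gave Lce3e rank 12, Lce3c 16, Lce3b 17 and Lce3d 20, and their differences lay within 2.78 and 3.18, close together beside control SDs of 0.60 to 0.72. Lce3a and Lce3f are left out of this order, because their control signals were near background. Of these 4 genes Lce3c thus had the smallest ratio difference and the largest reference difference.

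The deposited log2 table carries the ratio computed by the scanner software, which subtracts background before it forms the ratio, and for the Lce3 probes it lay within 5e-06 of that software ratio in the array files. In it the differences were 3.61 for Lce3f, 2.37 for Lce3a, 1.90 for Lce3d, 0.79 for Lce3b, 0.27 for Lce3c and 0.19 for Lce3e. Only 3 of 6 genes were at least 2-fold higher, against 3.35% of all targets, and 4 of 6 did not overlap, against 8.45%. Both counts include Lce3a and Lce3f, whose control signals were near background, and the shares are given for scale only. The 2 genes that overlapped were Lce3c and Lce3e, which had separated without overlap in the sample channel.

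For Lce3e the deposited log2 ratios were 3.91, 4.14, 4.24 and 4.52 in EED cKO replicates 1 to 4 and 4.14, 4.12, 4.19 and 3.61 in control replicates 1 to 4. The genotypes overlapped, and in replicate 1 the control was above EED cKO by 0.23, with a difference of -0.23. The net reference signals behind the control ratios were small, since the reference spot read 33, 75, 52 and 63.5 over local backgrounds of 21 to 24. For Lce3c the deposited ratios were 5.31, 5.50, 5.47 and 6.11 against 5.20, 5.55, 5.23 and 5.35, and 3 of 4 same-numbered pairs were higher in EED cKO.

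Lce3a moved the other way between the processings. Its deposited ratios were 3.09, 1.70, 0.48 and 1.30 in EED cKO and -1.49, -1.002, 0.16 and -0.58 in control, so the groups did not overlap, although the spot was well above background on no control array and its reference on 1 array of 8. Lce3f had deposited ratios of 5.15, 5.25, 5.27 and 5.42 in EED cKO and 3.09, 2.10, 3.40 and -1.95 in control, where control replicate 4 was far below the other controls at a sample spot of 25 over a background of 22. The deposited values of Lce3a, and those of Lce3f in control, are thus ratios of signals near background.

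**Figure D2:**
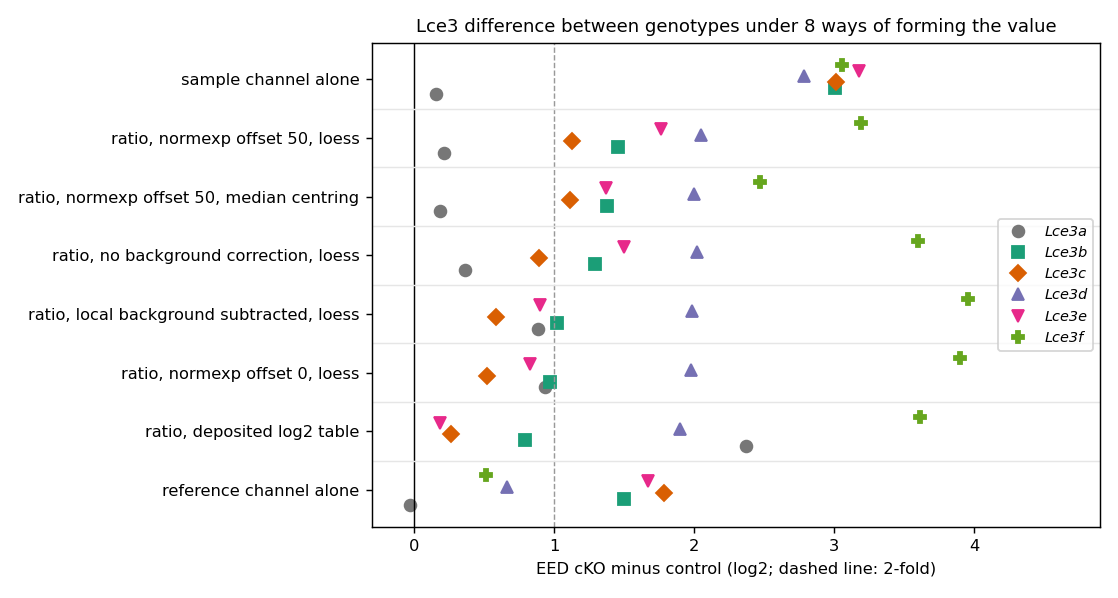
EED cKO minus control difference (log2) of each Lce3 gene under 8 ways of forming the value, from the sample channel alone at the top to the reference channel alone at the bottom, with a dashed line at a 2-fold difference. Lce3b, Lce3c and Lce3e move from 3.01 to 3.18 in the sample channel to between 0.19 and 0.79 in the deposited table, Lce3d stays between 1.90 and 2.78 in every row except the reference, where it is 0.66, and Lce3a reaches 2.37 only in the deposited table.

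Between these ends, smaller offsets gave smaller differences for the same 3 genes. With no offset, the normexp ratio differed by 0.97 for Lce3b, 0.52 for Lce3c and 0.83 for Lce3e, and with plain subtraction of the local background by 1.02, 0.58 and 0.90. Lce3d kept 1.98 and 1.99 under these settings. Lce3f rose to 3.90 and 3.95, and Lce3a to 0.93 and 0.89. Without any background correction the 6 differences were 0.37, 1.29, 0.89, 2.02, 1.50 and 3.60 from Lce3a to Lce3f, and median centring in place of loess gave 0.19, 1.38, 1.11, 2.00, 1.37 and 2.47.

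Same-numbered replicates of the genotypes shared a dye arrangement. The ratio difference within such pairs ran from 1.01 to 2.20 for Lce3b, 0.68 to 2.06 for Lce3c, 1.23 to 2.79 for Lce3d, 1.17 to 2.58 for Lce3e and 2.83 to 3.51 for Lce3f, with 4 of 4 pairs higher in EED cKO for each. In all of these ranges the smallest was the pair of replicate 3 and the largest that of replicate 4. The 2 pairs with the sample in Cy3 gave smaller mean differences than the 2 with the sample in Cy5, as 1.26 against 1.66 for Lce3b, 0.84 against 1.40 for Lce3c and 1.73 against 2.37 for Lce3d.

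The dye as such, which the rule did not use, was tested across all targets. The effect of a sample labeled in Cy5 rather than Cy3 on the log2 ratio was 0.035 to 0.15 for the 6 genes, and 0 of 6 passed an adjusted p below 0.05 by limma (0 of 6 also had an unadjusted p below 0.05, the lowest being 0.254), against 19.1% of all targets. With median centring in place of loess, 3 of 6 passed. For Lce3b the difference was 0.15 with a 95% interval of -0.30 to 0.60, and for Lce3a 0.088 with an interval of -0.075 to 0.25, so an effect within these bounds could not be detected with 8 arrays.

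Control replicates 2 and 3, the higher controls for Lce3b to Lce3e, differed from all other arrays in Y-linked RNA. Eif2s3y, a Y-linked translation initiation factor gene, gave sample intensities of 2283 and 1588 on those arrays and 23 to 47 on the other 6. Xist, the RNA of the inactive X chromosome, gave 28 and 53.5 on those arrays and 85 to 152 on the others. By these RNAs the EED cKO samples were like control replicates 1 and 4, so sex was not balanced between the genotypes. The limma fits pooled all 4 controls and had no term for it. Against control replicates 1 and 4 alone, the sample channel difference of the EED cKO arrays was 3.53 for Lce3b, 3.53 for Lce3c, 3.25 for Lce3d, 3.68 for Lce3e, 3.15 for Lce3f and 0.16 for Lce3a. Against control replicates 2 and 3 it was 2.49, 2.50, 2.32, 2.67, 2.96 and 0.15 in the same order. In this channel each gene from Lce3b to Lce3f was over 2-fold higher in EED cKO against either pair of controls. On the ratio, by contrast, Lce3c differed by 0.78 against control replicates 2 and 3 and by 1.47 against 1 and 4. The sample channel gave log2 differences between the control pairs of 0.94 to 1.04 for Lce3b to Lce3e and 0.19 for Lce3f. Whether sex had a part in the difference between controls, or in that between genotypes, was not tested.

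Within genotypes, the probes of Lce3b to Lce3e varied together from array to array. Over 8 arrays, with the genotype means removed, Pearson's r between pairs of Lce3b, Lce3c, Lce3d and Lce3e was 0.885 to 0.975 on the ratio and 0.869 to 0.995 in the sample channel. Lce3f had an r of 0.605 to 0.716 with these 4 genes on the ratio and Lce3a 0.034 to 0.41 with the other 5, and by the sample channel these were 0.655 to 0.847 and 0.299 to 0.653. The sample channel SDs of Lce3b to Lce3e were 0.60 to 0.72 in control and 0.18 to 0.40 in EED cKO. The control spread holds the step of 0.94 to 1.04 from control replicates 1 and 4 to replicates 2 and 3, which also enters these r values. These arrays share a slide, and the genes are close paralogs whose transcripts may bind each other's probes, which was not tested because the probe sequences were not analysed here. The 5 other genes whose ratio was most like the mean of the Lce3 genes over the 8 arrays, with the dye effect removed, were Tob1 (r = 0.9975), Txnrd1 (0.9966), Degs2 (0.9963), Cplx1 (0.9961) and Il18 (0.9950). Tob1 encodes an antiproliferative protein, Txnrd1 a thioredoxin reductase, Degs2 a sphingolipid hydroxylase of phytoceramide synthesis, Cplx1 a complexin of vesicle fusion and Il18 a cytokine. By the sample channel they were Txnrd1, Frem3, Fgd4, Lactb2 and Hepacam2, with r from 0.9944 to 0.9970. The genotype difference makes up much of such an r, and 8 arrays cannot single out a partner.

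The 6 Lce3 genes follow each other on chromosome 3 with no other protein-coding gene between them, and the genes beside them were examined for the same pattern. On one side of Lce3a lie 2310050C09Rik, Lce1l, Kprp and the Lce1 genes from Lce1k to Lce1e, and beyond Lce3f lie Crct1, Lce1m, Tdpoz8, Crnn and Flg2. In the sample channel the difference dropped from 3.05 at Lce3f to 1.24 at Crct1 (limma, adjusted p = 0.00589) and 0.81 at Lce1m (adjusted p = 0.0381). On the other side it was 1.20 at 2310050C09Rik (adjusted p = 0.00255), 1.51 at Lce1l (adjusted p = 0.00156) and 2.11 at Lce1k (adjusted p = 0.000986). On the ratio, Crct1 (0.21, adjusted p = 0.182), Lce1m (0.21, adjusted p = 0.139) and 2310050C09Rik (0.085, adjusted p = 0.578) did not pass, and their reference channel differences were 0.99, 0.62 and 1.03. Lce1l and Lce1k had ratio differences of 0.72 (adjusted p = 0.00167) and 1.25 (adjusted p = 0.00157). Beyond Lce1m, Tdpoz8 and Flg2 did not pass in the sample channel or on the ratio, but Crnn did. Crnn differed by 1.20 in the sample channel (limma, adjusted p = 0.000186) and by 1.42 on the ratio (adjusted p = 0.000118), above the ratio difference of Lce3c.

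**Figure D3:**
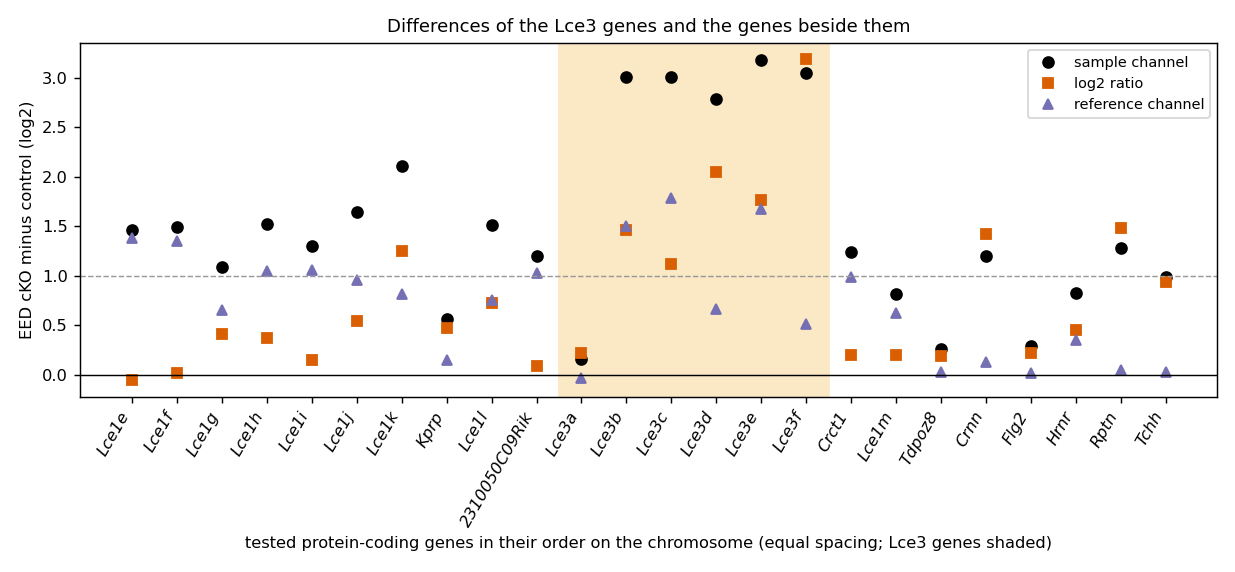
EED cKO minus control difference (log2) of the tested protein-coding genes around the Lce3 genes in chromosome order, with equal spacing and the Lce3 genes shaded. Circles are the sample channel, squares the ratio to the reference and triangles the reference channel, and the dashed line is a 2-fold difference. Lce3b to Lce3f stand at 2.78 to 3.18 in the sample channel, above the 2.11 of Lce1k, and the Lce1 genes show sample differences of 0.81 to 2.11, with ratio differences from -0.056 for Lce1e to 1.25 for Lce1k.

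The rest of the late epidermal program was read from 7 gene lists, chosen with earlier results of these data known, of which 95 of 109 genes were tested. Of these, 29 were called higher and 2 lower in EED cKO in the sample channel (32.6% called, against 1.12% higher and 0.156% lower among all targets), and on the ratio 14 were called higher and 0 lower (14.7%, against 1.1% and 0.0994%). On the ratio without a fold limit, 39 of the 95 were higher and 9 lower at an adjusted p below 0.05, against 11.8% and 9.93% of all targets. In the reference channel 10 of the 95 were called higher and 0 lower (10.5%, against 0.0735% and 0.00432%). The median difference of the 95 genes was 0.49 in the sample channel and 0.26 on the ratio, against -0.00827 and 0.0191 over all targets.

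The Lce1 genes, relatives of the Lce3 genes in the same cluster, differed more in the sample channel than on the ratio. Of 14 tested, 10 were called higher in the sample channel, with a median difference of 1.29, whereas the ratio called 1, with a median of 0.14 and 5 of 14 higher at an adjusted p below 0.05 without the fold limit, and the reference channel called 6. Lce1e, a late envelope gene of normal epidermis, differed by 1.46 ± 0.21 (SE) in the sample channel with a limma adjusted p = 0.00331. On the ratio Lce1e differed by -0.056 with an adjusted p = 0.697, and in the reference channel by 1.38 with an adjusted p = 0.00375. Lce1k alone passed on the ratio, by 1.25 with an adjusted p = 0.00157.

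The Sprr genes encode small proline-rich precursors of the envelope. Of 8 tested, 3 were called higher on the ratio, 4 in the sample channel and 0 in the reference channel by limma, where 4 had an unadjusted p below 0.05. Sprr2g rose by 2.32 on the log2 ratio (limma, adjusted p = 0.000571), Sprr1a by 1.56 (adjusted p = 0.00226) and Sprr1b by 1.50 (adjusted p = 0.00627). Their sample channel differences of 2.28, 1.84 and 1.72 were near these ratios, unlike those of Lce3b, Lce3c and Lce3e. The major envelope protein loricrin did not pass, with a Lor ratio difference of 0.10 (adjusted p = 0.386), nor did involucrin, with an Ivl difference of 0.34 (adjusted p = 0.401).

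Among 19 other genes of the cornified envelope and the epidermal differentiation complex, 3 were called higher on the ratio, namely Rptn (1.48, limma adjusted p = 0.00862), Crnn (1.42, adjusted p = 0.000118) and Lelp1 (1.01, adjusted p = 0.00117). Repetin and cornulin, encoded by Rptn and Crnn, are fused-type S100 proteins of the envelope. The other Lelp1 probe differed by -0.10. In the sample channel 4 genes of this list were called higher and 1 lower, the latter being Evpl, which encodes the desmosomal plaque protein envoplakin, which fell by 1.00 on the log2 scale with an adjusted p = 0.0113, while its ratio differed by 0.11 with an adjusted p = 0.249. None of the 4 transglutaminase genes was called in any readout by limma, though on the ratio 1 had an adjusted p below 0.05 without the fold limit and 3 an unadjusted p below 0.05.

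Some genes of barrier repair and inflamed skin, with which human LCE3 genes are known to be induced, were also called higher in EED cKO. Of 21 tested, 7 were called higher and 0 lower on the ratio, 9 in the sample channel and 4 in the reference channel. Among all targets 1.1% were called higher on the ratio, 1.12% in the sample channel and 0.0735% in the reference channel. At a limma adjusted p below 0.05 alone, 15 of the 21 were higher and 0 lower on the ratio, against 11.8% and 9.93% of all targets. The wound keratin genes Krt6b and Krt6a differed on the ratio by 3.39 (limma, adjusted p = 1.62e-06) and 2.73 (adjusted p = 2.5e-06), although another Krt6b probe differed by 0.73. Il1f6, which encodes an interleukin of the IL-36 group, rose by 1.88 (adjusted p = 0.000908), and S100a9, a subunit of calprotectin, by 1.48 (adjusted p = 0.0053). The antimicrobial peptide gene Defb14 likewise differed in both channels, with 3.31 in the sample channel, 2.00 in the reference channel and 1.23 on the ratio, with adjusted p-values of 1.85e-07, 3.62e-07 and 0.000353, and Il1f6 had a reference difference of 1.25. In the deposited table the differences of these genes were -0.30 for Il1f6, -0.073 for Defb14, 0.14 for S100a9, 1.12 for Krt6a and 2.81 for Krt6b, so that Il1f6 and Defb14 changed sign there.

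Transcription factors of late differentiation were not called higher along with the Lce3 genes on the ratio. There 0 of 20 passed both limits in either direction by limma. At an adjusted p below 0.05 alone 1 was higher and 8 were lower, against 11.8% and 9.93% of all targets. Of the 20, 11 had an unadjusted p below 0.05. In the sample channel 1 was called higher and 0 lower, and 1 was higher and 7 lower at an adjusted p below 0.05 alone. The gene called there was Hopx, with a difference of 1.07 (limma, adjusted p = 0.0155). Klf4, a regulator of terminal differentiation, had a ratio difference of -0.70 (adjusted p = 0.00746). Of 9 AP-1 subunits 0 passed both limits on the ratio, and 7 had an unadjusted p below 0.05. At an adjusted p below 0.05 alone 5 were higher and 1 lower, against 11.8% and 9.93% of all targets. The sample channel called 1 higher and 1 lower, Atf3 by 1.01 and Fosl2 by -1.09 (limma, adjusted p = 0.0261 and 0.00109). On the ratio Atf3 was higher by 0.72 (adjusted p = 0.0144) and Fosl2 lower, with a difference of -0.96 (adjusted p = 0.00101), or -0.30 on its other probe.

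**Figure D4:**
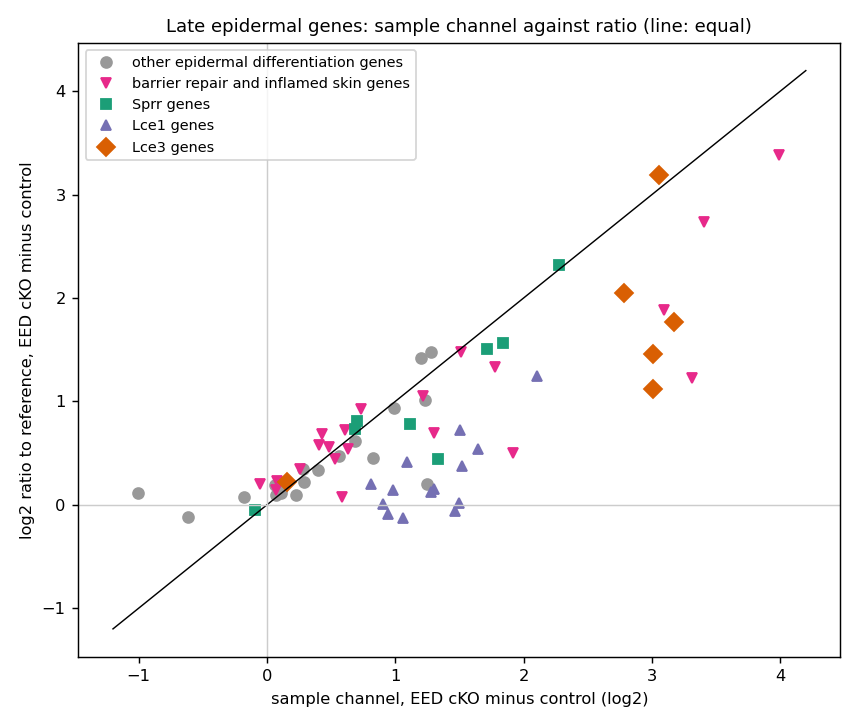
EED cKO minus control difference (log2) in the sample channel (horizontal) and on the ratio to the reference (vertical) for the Lce3 genes and for tested genes of 4 of the lists, with a line where both are equal. Lce3f and the 3 Sprr genes called on the ratio lie near the line, whereas Lce3b, Lce3c, Lce3d, Lce3e and the Lce1 genes lie below it. The Lce1 genes have ratios from -0.13 to 1.25. Genes of the other lists lie below the line too, among them Sprr2d, at 1.33 in the sample channel and 0.44 on the ratio. Others are Defb14 (3.31 and 1.23), Il1f6 (3.09 and 1.88) and Crct1 (1.24 and 0.21).

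Some markers of other cells also differed between the genotypes, and their part in the Lce3 differences was not tested. Merkel cell markers, 5 tested, had a summed sample intensity of 1055 to 2113 in EED cKO and 594.4 to 1515 in control, and 5 of 5 had a higher ratio at an adjusted p below 0.05, with a median difference of 0.83. Basal keratinocyte genes summed to 178100 to 259400 in EED cKO and 203900 to 336500 in control, and suprabasal genes to 155400 to 229000 and 178500 to 247900, ranges that overlap. Of the suprabasal genes only Krt2, a keratin of the upper layers, was called higher, by 1.00 with a limma adjusted p = 0.00103, and its other probe differed by 3.28. On the ratio at an adjusted p below 0.05 with no fold limit, 11.8% of all targets were higher and 9.93% lower. By the same limit 2 of 5 suprabasal, 2 of 10 hair shaft and inner root sheath and 1 of 6 dermal fibroblast genes were higher. So were 2 of 3 genes of tongue, oesophagus and forestomach epithelium, 2 of 4 immune, 2 of 2 endothelial and 1 of 4 neuron and Schwann cell genes. Lower were 3 of 6 basal genes and 1 neuron or Schwann cell gene. For 2 skeletal muscle, 2 erythroid and 5 melanocyte genes 0 passed by limma, and 1, 1 and 2 of them had an unadjusted p below 0.05, with summed erythroid intensities of 404.5 to 3908 in EED cKO and 214 to 1950 in control.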

How the data were processed

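RNA of 4 EED cKO and 4 control epidermis samples was measured on 8 Agilent arrays of 55681 non-control probes. The authors deposited, per array, the output of Agilent Feature Extraction 12.0.1.1 (per the submitters' processing notes), with the median intensity and local background of each spot in both channels, not normalized, background flags, and the log10 ratio of red (Cy5) to green (Cy3) after the software's own background subtraction and dye normalization. The authors also deposited a table of log2 ratios, which for the Lce3 probes is the same ratio turned to sample over reference, uncentred.

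Here outlier and control spots were left out, background was corrected by normexp (offset 50), arrays were normalized by loess, and probes were named through RefSeq accessions (28026 of 29796 matched, GRCm38.p6), with the brightest probe of a gene used. Single channels were quantile normalized across arrays. On 53.3% to 65.5% of spots in EED cKO and 51.5% to 65.4% in control the sample was well above background. No spot was saturated in the sample channel. The number of arrays limits the precision. Genotype and dye were fitted in R 4.3.3 with limma 3.58.1 and Benjamini-Hochberg adjustment. The fit was tested on simulated log ratios with noise drawn independently for each array. That simulation did not cover background correction, loess or deviations shared between arrays. Genes called changed passed an adjusted p below 0.05 and a 2-fold change.

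The members and lists were chosen with earlier results of these data known. The lists are the 7 of late epidermal genes and 12 of cell markers named in the results. The text names all Lce3 genes, Eed, up to 4 called genes with the largest change from each list, and the 5 genes most like the Lce3 mean. Y-linked genes, Xist, neighbouring genes, Evpl, Lor, Ivl, Lce1e, Klf4, Hopx, Atf3 and Fosl2 were named after their values were seen. Same-numbered arrays deviated together across targets (correlations 0.488, 0.679, 0.326 and 0.364), so the number was also tried as a block. The labels do not say what it stands for, and it also marks the dye and the slide column. Other alternatives were background, scaling, filter, probe choice, single channels, each array left out in turn, no limit on the fold, and the methods' t-test. The reference channel, the uncorrected sample channel and leaving out control replicates 2 and 3 were added after seeing the data.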

Additional observations from a re-analysis of the deposited data

Results flagged for a closer look

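In the deposited log2 ratios of Lce3e, control replicate 4 (3.61) stood apart from the other 3 control arrays, with a gap of 0.876 of the control range. Chance marks about 1 in 20 groups in this way.

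The reference channel, in which every array carried the same RNA, gave a higher Lce3 signal on the EED cKO arrays, and the comparison of genotypes otherwise uses it only as a divisor. The log2 difference between EED cKO and control arrays in that channel was 1.50 for Lce3b, 1.78 for Lce3c, 0.66 for Lce3d, 1.67 for Lce3e and 0.51 for Lce3f, while Lce3a gave -0.029. Across same-numbered pairs the smallest of these differences was 0.85 for Lce3b, 1.15 for Lce3c, 0.51 for Lce3d, 1.14 for Lce3e and 0.32 for Lce3f.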

How the results depend on the processing

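The 6 Lce3 differences kept their direction under all alternatives except that of Lce3a in the reference channel (-0.029). Their median, 1.61 on the ratio, was 0.95 with normexp at offset 0, 0.96 with local background subtracted, 3.01 in the sample channel, 3.05 there without background correction, 1.08 in the reference channel and 2.07 without control replicates 2 and 3. Leaving out each array in turn gave 1.37 to 1.82. Lce3c fell below 2-fold without some arrays (0.89 to 1.27). The number of Lce3 genes with a dye effect was 0, and 3 under median centring. It was 0 when each array was left out in turn.

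Over all targets 278 were called changed (255 higher, 23 lower), 612 at offset 0, 576 with background subtracted, 699 with the Feature Extraction ratio, 698 with the deposited table (592 higher, 106 lower), 175 with the methods' t-test after Benjamini-Hochberg (275 before), 5024 without the fold limit, 18 in the reference channel and 255 to 317 with an array left out. Median centring called 156 higher and 56 lower. Of the late epidermal genes 14 were called, 31 in the sample channel, 8 with the methods' t-test after Benjamini-Hochberg, 48 without the fold limit and 13 to 15 with an array left out. With the replicate number as a block, 279 targets and 14 late genes were called and the Lce3 median was 1.61. The cause was not tested, apart from the thresholds that the fold limit and the t-test themselves change. Signals near background limit the Lce3a and control Lce3f values.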
